A study of Mus musculus with 12 samples.

Results

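The genes described here are 8 mouse carboxylesterases, Ces1c, Ces1d, Ces1e, Ces1f, Ces1g, Ces2a, Ces2c and Ces2e, of 38924 genes counted. They were taken by symbol from the Ces1 and Ces2 gene clusters and were chosen by the differences between knockout and wild type in these same libraries, where read counts of Ces1d and Ces1g were much lower in the knockout. The differences between knockout and wild type therefore chose the set and are given as a description without a test. Differences between the times of day did not enter the choice and were tested. After the filter on low counts 7 of the 8 genes were tested, and Ces2a was not.

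Carboxylesterases are serine hydrolases of the endoplasmic reticulum that split ester, amide and thioester bonds. They activate or clear many ester drugs and also act on the body's own neutral lipids, mainly in liver, intestine and kidney. In mouse liver Ces1d is known as a triacylglycerol hydrolase that feeds stored fat into lipoprotein assembly. In mouse liver several drug and lipid enzymes are known to follow the time of day.

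Poly(A) RNA of whole mouse kidney was sequenced in 4 groups of 3 libraries. Knockout mice (KO) were Bmal1lox/lox/Pax8-rtTA/LC1 animals on the C57BL/6J background that received doxycycline at 2 mg/ml in the drinking water for 2 weeks from an age of 8 weeks. In this model the Pax8 promoter drives the doxycycline-dependent activator in kidney tubule cells, and LC1 supplies Cre, so that Arntl, the gene of the clock factor BMAL1, is deleted in the tubule while other kidney cells keep it. Controls (WT) were wild-type littermates, whose transgenes and doxycycline exposure the labels do not state. Kidneys were taken at zeitgeber time 4 (ZT4, in the light phase) and 16 (ZT16, in the dark phase) of a cycle with 12 h of light, on standard chow. The replicates are numbered 1, 3 and 5 in both WT groups and 2, 4 and 6 in both KO groups. Nothing in the labels ties the 3 libraries of each group to different mice, and p-values thus rest on a spread between libraries that could be technical only. The labels do not give the sex of the animals. Y-linked Ddx3y was counted in every library, at 70.5 to 135 CPM. Xist, which female cells express, was at 0.192 CPM or less, so the libraries look male.

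Libraries held 25628887 to 38043491 reads on genes, and values below are CPM, the reads of a gene relative to the library size after TMM scaling. Arntl itself was not lower in KO libraries, at 13.8 to 20.01 CPM in WT ZT4 and 14.4 to 16.2 in KO ZT4, and the deleted part of the gene cannot be seen in a count over the whole gene. Other clock genes separated the genotypes, for example Npas2 at 2.57 to 11 CPM in the WT libraries and 24.7 to 45.3 in the KO libraries. KO ZT16 replicate 2 stood apart from the other KO ZT16 libraries: chi-square per degree of freedom over genes was 191 and 169 against them and 4.71 between those. The first principal component of log2 CPM held 46.7% of the variance. On it KO ZT16 replicates 4 and 6 lay at -9.73 and -11.8 and the WT ZT16 libraries at 25.1 to 49. Replicate 2 lay at 43, within that WT range, while its Npas2 of 24.7 CPM lay above every WT library. Mitochondrial genes took 22.3% of its counts against 14.0% and 14.1%, so those differences of the members that it moved by over 1.5 times, or whose call it changed, are also given without it. Proximal tubule markers were present in every library, with Lrp2 at 2322 to 2938 CPM. Of 10 hepatocyte markers Tat, Ahsg and Cps1 were at or near 0, at most 0.0752 CPM, while others were counted, Alb at up to 16.3 CPM and Apoh at up to 44.2, and the list summed to 28.9 to 61.5 CPM.

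The coding sequences show how far reads of these genes can be kept apart. Ces1d shares 81.6% of aligned coding bases with Ces1g, 80.4% with Ces1e and 78.5% with Ces1f, and 63.0% to 64.7% with the Ces2 members. Ces2c and Ces2e share 84.0%. The stretch around the codon of the active-site serine, one of the better conserved parts of the family, is printed for the 6 members that results rest on, 60 bases each from the GENCODE M21 transcripts (GRCm38). Capitals mark bases that differ from Ces1d.
Ces1d: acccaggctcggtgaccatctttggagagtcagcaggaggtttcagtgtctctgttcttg
Ces1e: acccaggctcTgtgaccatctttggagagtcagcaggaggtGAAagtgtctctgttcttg
Ces1f: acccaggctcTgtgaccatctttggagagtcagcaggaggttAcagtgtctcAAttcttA
Ces1g: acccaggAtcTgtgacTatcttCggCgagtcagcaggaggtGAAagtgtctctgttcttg
Ces2c: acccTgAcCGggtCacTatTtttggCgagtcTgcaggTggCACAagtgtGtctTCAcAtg
Ces2e: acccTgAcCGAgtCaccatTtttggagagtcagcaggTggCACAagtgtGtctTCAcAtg

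Even in this stretch Ces1e differs from Ces1d at 4 bases, Ces1f at 5, Ces1g at 8, Ces2e at 17 and Ces2c at 19. Over whole transcripts, 1.08% of 50-base windows of Ces1d and 1.67% of those of Ces1g occur in a transcript of another gene, and none of their 100-base windows do. Ces2c is the exception among the well-expressed members, with 36.1% of its 50-base windows in another gene, most of them in the pseudogene Ces2d-ps (32.7%). Reads that align to several places may have been left out there, so the level of Ces2c is uncertain. No exon of the 8 genes overlaps an exon of another annotated gene on either strand.

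The Ces1 cluster lies on chromosome 8 between 93020214 and 93535830 (GRCm38) and holds 9 carboxylesterases on the minus strand. Ces1c, Ces1d, Ces1e, Ces1f and Ces1g follow each other there, with Ces1d at 93166068 to 93197838 and Ces1g at 93302369 to 93337308. The Ces2 cluster lies on the same chromosome between 104734003 and 105150109 and holds 11 carboxylesterases on the plus strand, with Ces2c at 104847068 to 104854483 and Ces2e at 104926260 to 104934672.

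Ces1f and Ces1d were the most abundant members in WT kidney, and the order of the members changed in the knockout. Levels were compared between genes per kilobase of exon. In WT ZT4, Ces1f stood at 259 ± 37.2 CPM per kb (SD, n = 3) and Ces1d at 134 ± 10.4. Ces1e followed at 47.9 ± 5.43 and Ces2c at 45.1 ± 3.15, with overlapping libraries, then Ces1g at 24.6 ± 1.80 and Ces2e at 7.19 ± 0.193. Ces1c stood at 0.144 ± 0.0113 CPM per kb, and all other neighbours in this order did not overlap. Per kilobase of the longest transcript instead of all exons, the level of Ces1f was 441 CPM per kb in WT ZT4, and Ces2c came before Ces1e. At WT ZT16 the order was the same, but the libraries of Ces1f (318 ± 46.2 CPM per kb) and Ces1d (260 ± 34.6) overlapped. In KO ZT4 Ces1d fell behind Ces1e, at 27.2 ± 0.184 CPM per kb against 38.6 ± 1.86, and overlapped Ces2c at 28.4 ± 2.13. In the same group Ces1g, at 4.03 ± 0.687 CPM per kb, overlapped Ces2e at 4.43 ± 0.0654. At KO ZT16 Ces1e, Ces1d and Ces2c overlapped each other in turn, as did Ces1g and Ces2e.

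Ces2a, a carboxylesterase known from mouse liver and intestine, had 3 reads in all, 2 in WT ZT4 replicate 1 and 1 in KO ZT4 replicate 2. In the other 10 libraries it was at 0, which allows up to 0.0694 to 0.113 CPM by a floor of 3 counts that covers counting error only. Ces1c, whose product is secreted into plasma by mouse liver, had 3 to 18 reads per library, or 0.109 to 0.513 CPM.

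**Figure D1:**
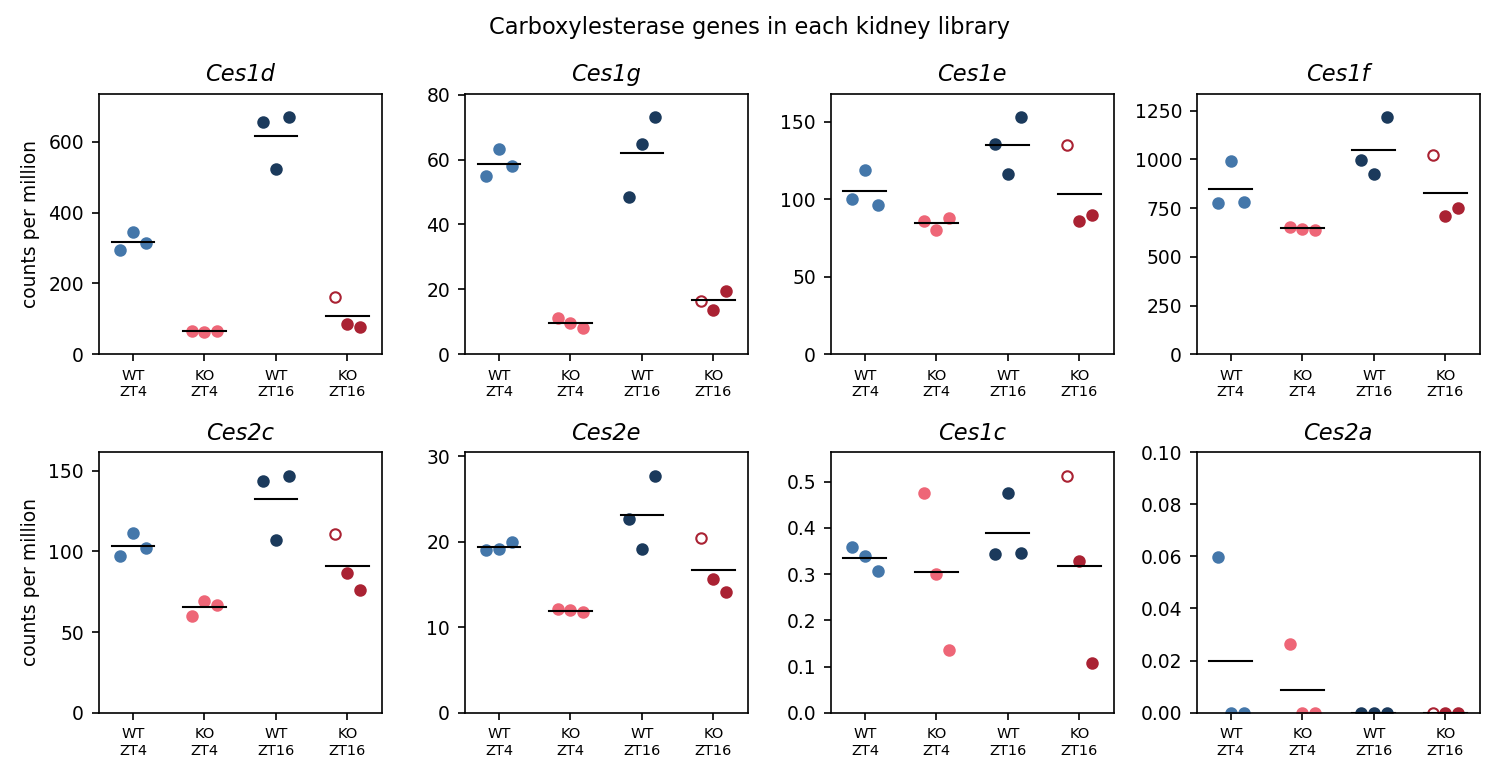
CPM of each carboxylesterase gene on linear axes that differ between panels, for 3 libraries in each of 4 groups (points in the order of the replicate numbers) with the group mean as a bar. The open circle is KO ZT16 replicate 2. Ces1d and Ces1g in KO libraries lie below every WT library, while the KO ZT16 points of Ces1e, Ces1f, Ces2c and Ces2e reach into the WT ZT16 range at replicate 2.

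Ces1d and Ces1g were the 2 members with the much lower values in KO kidney, at both times. In whole-kidney RNA, fewer cells of a type and less RNA per cell cannot be told apart. Ces1d was counted at 296, 344 and 314 CPM in WT ZT4 replicates 1, 3 and 5 and at 64.4, 64.1 and 65.0 CPM in KO ZT4 replicates 2, 4 and 6. In the dark phase the WT libraries had 657, 522 and 669.7 CPM and the KO libraries 160.4, 86.1 and 77.9. No KO library reached a WT library at either time, and KO ZT16 replicate 2 was the highest KO library. The mean in KO was 20.3% of that in WT at ZT4 and 17.6% at ZT16, with log2 fold changes of -2.30 ± 0.23 (SE) and -2.51 ± 0.23. These values place Ces1d 13th and 11th from the lowest among 16150 tested genes. Without KO ZT16 replicate 2 the difference at ZT16 was the largest of all left-out settings, at -2.92.

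Ces1g, a close relative of Ces1d that in mouse liver takes part in fat metabolism, showed a similar picture at a lower level. It was counted at 54.9, 63.4 and 57.9 CPM in WT ZT4 and at 11.3, 9.58 and 8.00 CPM in KO ZT4. At ZT16 the WT libraries had 48.4, 64.8 and 73.0 CPM and the KO libraries 16.6, 13.7 and 19.6. The groups did not overlap, and KO ZT16 replicate 2 lay between the other KO ZT16 libraries. The log2 fold change was -2.61 ± 0.18 at ZT4 and -1.90 ± 0.17 at ZT16, and leaving out any 1 library kept it between -2.74 and -2.49 and between -2.06 and -1.78. The mean in KO was 16.4% and 26.8% of that in WT.

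The remaining Ces1 members were lower in KO by much less. Ces1f, known as a second triacylglycerol hydrolase of mouse liver, stood at 776, 991 and 783 CPM in WT ZT4 and at 655, 645 and 637 in KO ZT4, without overlap. At ZT16 it stood at 996, 926 and 1217 CPM in WT and at 1023, 708 and 750.3 in KO, where replicate 2 lay inside the WT range. Its log2 fold changes were -0.40 ± 0.15 and -0.34 ± 0.15. Ces1e, which in mouse holds beta-glucuronidase in the endoplasmic reticulum, had log2 fold changes of -0.31 ± 0.16 and -0.38 ± 0.16, from 96.4 to 119 CPM in WT ZT4 against 79.9 to 87.6 in KO ZT4. Ces1c had -0.09 ± 0.47 and -0.29 ± 0.47, with overlapping libraries at both times. The ZT16 values without KO ZT16 replicate 2 were -0.53 for Ces1f, -0.63 for Ces1e and -0.77 for Ces1c.

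The differences of Ces2c and Ces2e lay between those of these groups at ZT4. At ZT16 they did so only with KO ZT16 replicate 2 included, since without it the sparsely counted Ces1c was at -0.77. Ces2c, a carboxylesterase of mouse liver and intestine with triacylglycerol hydrolase activity, had 97.4, 112 and 102 CPM in WT ZT4 and 59.8, 69.3 and 66.7 in KO ZT4. In the dark phase WT libraries reached 143, 107 and 147 CPM and KO libraries 111, 86.4 and 76.4, and again replicate 2 lay inside the WT range. Its log2 fold changes were -0.67 ± 0.15 and -0.54 ± 0.15. Ces2e stood at 19.0, 19.2 and 20.01 CPM in WT ZT4 against 12.1, 12.0 and 11.8 in KO ZT4, and its log2 fold changes were -0.70 ± 0.15 and -0.47 ± 0.14. At ZT16 its WT libraries had 22.7, 19.2 and 27.8 CPM and its KO libraries 20.5, 15.7 and 14.2. Without KO ZT16 replicate 2 the log2 fold changes at ZT16 were -0.71 for Ces2c and -0.64 for Ces2e.

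The libraries of KO and WT did not overlap for 6 of 7 tested members at ZT4, where 37.7% of all tested genes did not overlap, and for 2 of 7 at ZT16, where the share was 15.9%. Without KO ZT16 replicate 2 no tested member overlapped at ZT16, where 57.2% of all genes did not overlap. The choice of the members used these contrasts, so nothing is read from those counts. The share of counts on mitochondrial genes also moved with genotype at ZT4, being 16.27% to 17.96% in WT and 12.6% to 12.8% in KO, and its part in these differences was not tested. The 8 proximal tubule markers summed to 13744 to 14673 CPM in WT ZT4 and 13186 to 13406 in KO ZT4. At ZT16 they summed to 13831 to 14403 CPM in WT and, in KO replicates 2, 4 and 6, to 10930, 13290 and 13162. Of those 8 markers 2 were lower in KO at ZT4 and 1 at ZT16, with a median log2 fold change of -0.13 at both times, and the part of this in the member values was not tested.

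Ratios of reads within a library do not depend on how libraries were scaled. There were 0.348 to 0.401 reads of Ces1d per read of Ces1f in WT ZT4, 0.0982 to 0.102 in KO ZT4, 0.550 to 0.660 in WT ZT16 and 0.104 to 0.157 in KO ZT16. KO ZT16 replicate 2 gave the highest KO ratio, 0.157, and still lay below all WT libraries. Ces1g per read of Ces1f was 0.0486 to 0.0739 in WT and 0.0126 to 0.0261 in KO libraries. Ces1e per read of Ces1f, in contrast, stayed between 0.119 and 0.138 in all 12 libraries, with overlapping ranges of genotypes and times. Ces2e per read of Ces2c ranged from 0.158 to 0.203.

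Ces1d was higher in the dark phase than in the light phase in both genotypes, and Ces1g was in the knockout. In WT kidney Ces1d was the 1 of 7 tested members that passed the test between ZT16 and ZT4, where 6.50% of all tested genes passed (edgeR quasi-likelihood test, Benjamini-Hochberg adjusted p under 0.05). It rose from a mean of 318 ± 24.6 CPM (SD, n = 3) to 616 ± 81.9, a log2 fold change of 0.95 ± 0.22 (edgeR adjusted p = 0.0251), and all 3 ZT16 libraries lay above all ZT4 libraries. For comparison, 42.6% of all genes had libraries of the 2 times that did not overlap in WT. Between the times in WT, the share of counts on mitochondrial genes was 16.27% to 17.96% at ZT4 and 18.7% to 22.4% at ZT16, and that of reads not uniquely aligned 34.1% to 36.5% and 38.8% to 41.8%, and their part in this rise was not tested. The call was lost without WT ZT4 replicates 1, 3 or 5 (edgeR adjusted p = 0.0850, 0.0547 and 0.105) and without WT ZT16 replicates 1 or 5 (edgeR adjusted p = 0.0758 and 0.0968), with log2 fold changes of 0.90 to 1.02. The adjusted p lay between 2.04e-05 and 0.105 over the alternatives run.

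The other WT time differences of the members did not pass. Ces1e had a log2 fold change of 0.36 ± 0.16, Ces2c of 0.35 ± 0.15, Ces1f of 0.30 ± 0.15, Ces2e of 0.26 ± 0.14 and Ces1c of 0.23 ± 0.46 (edgeR adjusted p = 0.136 to 0.753). Ces1g differed by 0.08 ± 0.17 (edgeR adjusted p = 0.758), from 58.7 ± 4.31 CPM at ZT4 to 62.1 ± 12.6 at ZT16. Without KO ZT16 replicate 2, which enters the WT test through the shared estimate of the spread, 4 members passed, Ces1d, Ces1e, Ces1f and Ces2c, and so did 33.5% of all genes. Their edgeR adjusted p were then 2.04e-05, 0.0106, 0.0370 and 0.0199.

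In KO kidney 2 of 7 members passed between ZT16 and ZT4, Ces1g and Ces1d, where 10.5% of all tested genes passed. Ces1g rose from 9.62 ± 1.64 to 16.6 ± 2.94 CPM (SD, n = 3), a log2 fold change of 0.78 ± 0.18 (edgeR adjusted p = 0.0219), and was higher in all 3 ZT16 libraries than in any ZT4 library. Its call was lost without KO ZT4 replicate 4 or 6 (edgeR adjusted p = 0.0879 and 0.0917) and in the fit of only the 2 groups compared (edgeR adjusted p = 0.0913), and held without KO ZT16 replicate 2 (edgeR adjusted p = 0.0220). The alternatives gave adjusted p-values between 0.000647 and 0.0917.

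Ces1d in the knockout rose from 64.5 ± 0.436 to 108 ± 45.5 CPM, a log2 fold change of 0.75 ± 0.22 (edgeR adjusted p = 0.0482). This rise leans on KO ZT16 replicate 2, without which it was 0.34 and no longer passed (edgeR adjusted p = 0.0572), and where 8.00% of all genes passed. It was also lost without any 1 of the 3 WT ZT4, the 3 KO ZT4 or the 3 WT ZT16 libraries (edgeR adjusted p = 0.0585 to 0.143) and in the fit of only the 2 groups compared (edgeR adjusted p = 0.155). Of 10 adipocyte markers 8 were also highest in replicate 2 among the KO ZT16 libraries, Adipoq at 8.48 CPM against 0.796 and 3.29. Lipe and Pck1 were lowest there. The share of all genes highest in replicate 2 was not counted. Some markers of other cells were highest there too, such as Atp6v1g3 at 138 CPM against 64.2 and 57.4. The adipocyte list summed to 1070 to 1170 CPM in KO ZT4 and 1858 to 2363 in KO ZT16, most of it Pck1, which the tubule also makes. Without Pck1 the sum was 57.2 to 83.2 CPM in KO ZT4 and 182, 55.5 and 90.3 in KO ZT16 replicates 2, 4 and 6. The median log2 fold change of the 10 markers between the times in KO was 1.21, and 1 of them was called, Pck1. Their part in the rise of Ces1d was not tested.

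Ces2c and Ces2e just missed the threshold in the knockout, with log2 fold changes of 0.48 ± 0.15 and 0.49 ± 0.15 (edgeR adjusted p = 0.0540 and 0.0535). Both were 0.31 without KO ZT16 replicate 2. Ces1f had 0.36 ± 0.15, Ces1e 0.29 ± 0.16 and Ces1c 0.03 ± 0.47 (edgeR adjusted p = 0.112 to 0.967), and without KO ZT16 replicate 2 the values were 0.17, 0.05 and -0.44. The libraries of the 2 times did not overlap for Ces1d, Ces1f, Ces1g, Ces2c and Ces2e in KO, where 43.3% of all genes did not overlap.

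**Figure D2:**
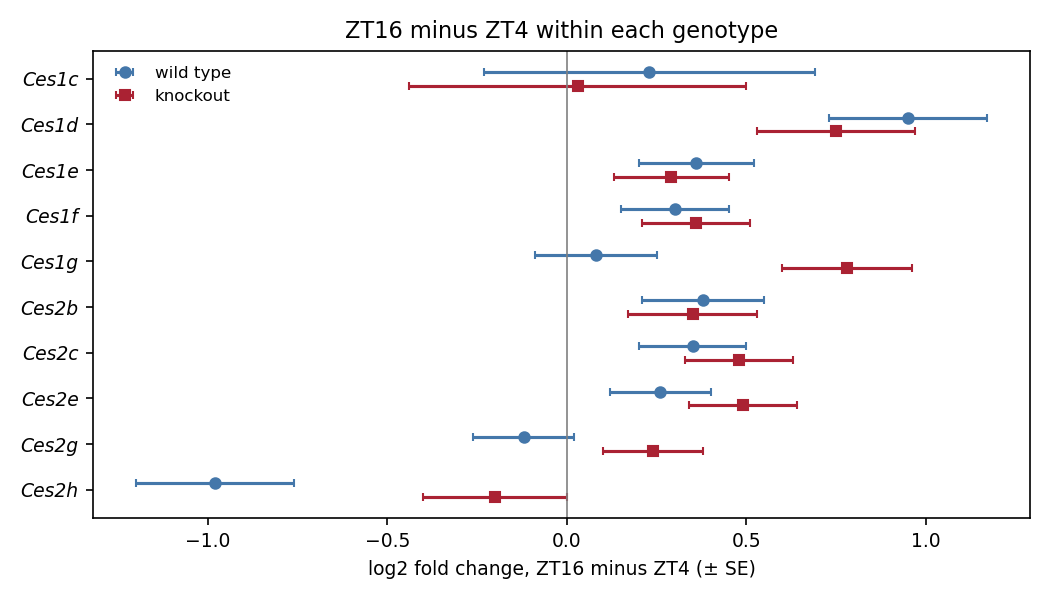
Log2 fold change of ZT16 minus ZT4 with its SE, for wild type (circles) and knockout (squares), in the 7 tested members and in Ces2b, Ces2g and Ces2h. Ces1d lies right of 0 in both genotypes, and Ces1g is at 0.08 in wild type and 0.78 in knockout.

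Whether the knockout difference changed between the times was tested by the interaction of genotype and time. None of 7 members passed in edgeR's quasi-likelihood test or in DESeq2, and 0.0186% of all tested genes passed in edgeR. At an unadjusted p under 0.05 in edgeR, 1 of 7 members was left, Ces1g, beside 540 of all 16150 tested genes. Its knockout difference was smaller at ZT16 than at ZT4 by 0.70 ± 0.24 on the log2 scale (edgeR unadjusted p = 0.0126, adjusted p = 0.9996). The same value for Ces1d was -0.21 ± 0.30 (edgeR adjusted p = 0.9996). Leaving out KO ZT16 replicate 2 gave 0.68 for Ces1g and -0.62 for Ces1d, and neither passed. The rise of Ces1g in the knockout and its smaller change in wild type are therefore not shown to differ.

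Of the 12 other carboxylesterases 3 passed the filter, Ces2b, Ces2g and Ces2h, all in the Ces2 cluster. In the comparison of KO and WT none passed at ZT4, where 3.29% of all genes did, and 1 was lower at ZT16, where 4.03% did (edgeR). At ZT4, 2 of the 3 had an unadjusted p under 0.05 in edgeR, beside 2955 of all 16150 tested genes. DESeq2 called 2 there, and 1061 genes in all. The gene lower at ZT16 was Ces2b, which fell from 15.7 ± 2.91 CPM in WT ZT16 to 9.66 ± 1.62 in KO ZT16 (log2 fold change -0.70 ± 0.17, edgeR adjusted p = 0.0431). It had 16.1, 12.7 and 18.4 CPM in the WT and 11.2, 9.77 and 7.99 in the KO libraries. Its call was lost in 9 of the 12 fits that leave 1 library out, all but those without WT ZT4 replicate 3, WT ZT16 replicate 3 and KO ZT16 replicate 2, and its edgeR adjusted p then ranged from 0.00397 to 0.186. At ZT4 the log2 fold change of Ces2b was similar, at -0.67 ± 0.18, and did not pass (edgeR adjusted p = 0.0627). Its interaction of genotype and time was -0.03 ± 0.25 (edgeR adjusted p = 0.9996), so the fall is not shown to be confined to ZT16. Ces2g had log2 fold changes of -0.54 ± 0.14 at ZT4 and -0.18 ± 0.14 at ZT16 (edgeR adjusted p = 0.0569 and 0.572).

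Ces2h had a knockout difference of 0.78 ± 0.22 on the log2 scale at ZT16, which did not pass (edgeR adjusted p = 0.0735). Without KO ZT16 replicate 2 it was 0.74 and passed (edgeR adjusted p = 0.0300), as did 5099 genes in all. It also passed without KO ZT4 replicate 6 (edgeR adjusted p = 0.0324) and in DESeq2 (DESeq2 adjusted p = 0.0186), which called 1008 genes in all. The gene stood at 3.61, 3.91 and 4.32 CPM in WT ZT4, at 4.70, 4.42 and 2.72 in KO ZT4, at 1.89, 1.68 and 2.46 in WT ZT16 and at 3.63, 2.96 and 3.80 in KO ZT16. The low values are those of WT ZT16, which did not overlap any other group. It fell in WT from ZT4 to ZT16 by 0.98 on the log2 scale (SE 0.22, edgeR adjusted p = 0.0231), a call lost without WT ZT4 replicates 1, 3 or 5 or WT ZT16 replicates 1 or 3 (edgeR adjusted p = 0.0520, 0.0537, 0.104, 0.0758 and 0.0787). In KO the difference was -0.20 ± 0.20 (edgeR adjusted p = 0.482), and the interaction of 0.77 ± 0.30 did not pass (edgeR adjusted p = 0.9996). The other 9 carboxylesterases, Ces1a, Ces1b, Ces1h, Ces2d-ps, Ces2f, Ces3a, Ces3b, Ces4a and Ces5a, stayed at or under 0.347 CPM in every library.

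Genes around the clusters had smaller differences than Ces1d and Ces1g, though some were as large as those of the other members. Ces1d and Ces1g were chosen by their large knockout difference, so that contrast follows from the choice and is no separate result. The 5 nearest tested protein-coding genes on each side of each cluster, 20 in all, had log2 fold changes of KO against WT between -0.36 and 0.70 at ZT4 and between -0.74 and 0.25 at ZT16. In edgeR none passed at ZT4, where 3.29% of all tested genes did. There 3 of the 20 had an unadjusted p under 0.05 in edgeR, beside 2955 of all 16150 tested genes, and DESeq2 called 0. At ZT16, where 4.03% of all tested genes passed, 1 neighbour fell. It was Rrad, a small GTPase gene next to the Ces2 cluster (-0.74 ± 0.18, edgeR adjusted p = 0.0406, from 2.07 to 1.24 CPM). Within the Ces1 cluster, Ces1e and Ces1f lie between Ces1d and Ces1g and had differences of -0.31 and -0.40 at ZT4, against -2.30 and -2.61 of the outer pair.

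**Figure D3:**
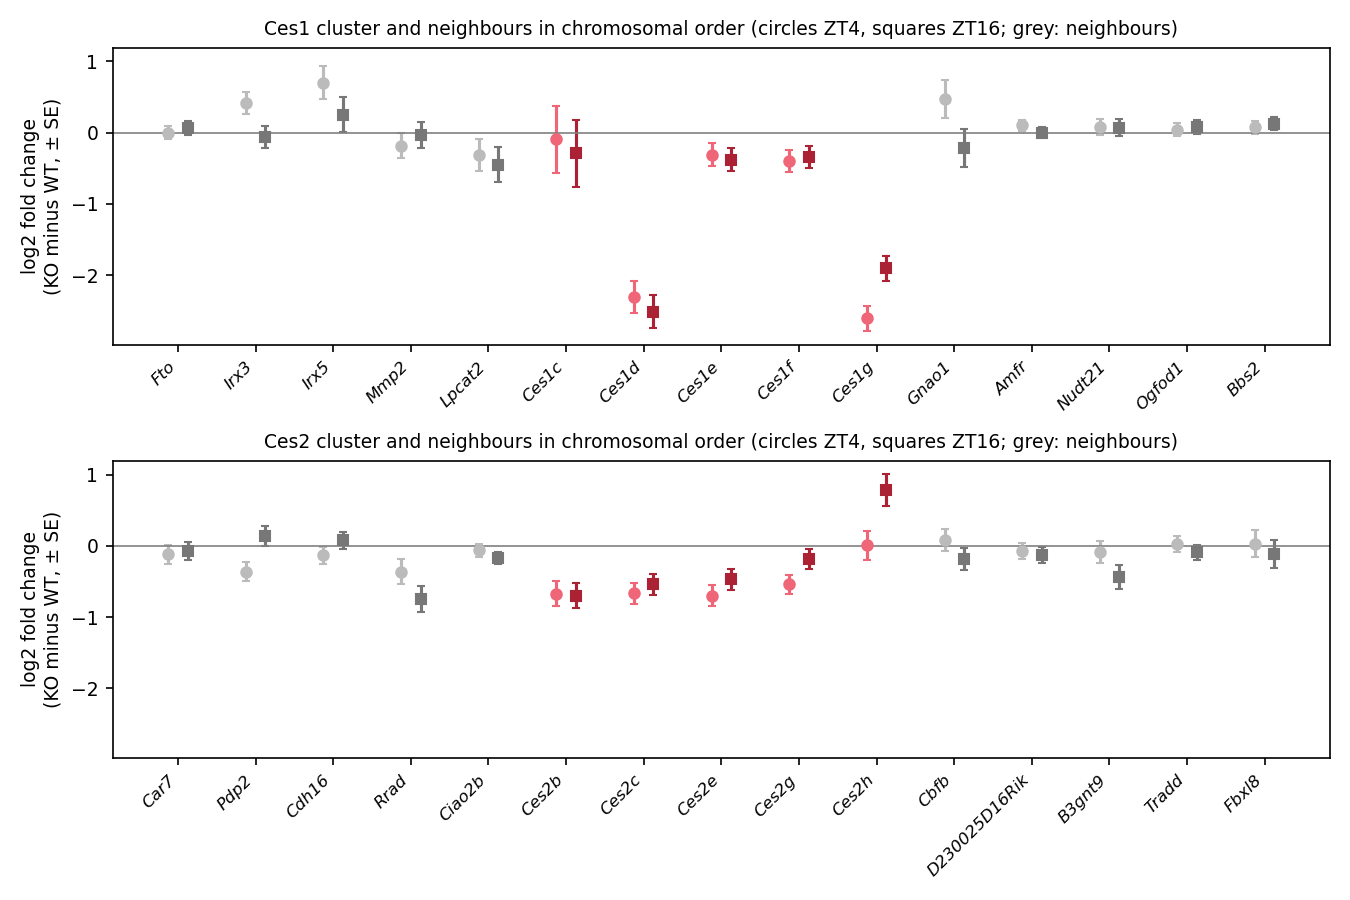
Log2 fold change of knockout minus wild type with its SE, at ZT4 (circles) and ZT16 (squares), for the tested carboxylesterases (red) and their nearest tested neighbours (grey) in chromosomal order without scale. Ces1d and Ces1g lie at or below -1.90, with Ces1e and Ces1f between them at -0.40 to -0.31. Ces1d and Ces1g were chosen by this difference, so their distance from the neighbours is no separate result.

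Promoters of 6 of the 8 members were in the RefSeq table (GRCm38.p6), and those of Ces1d and Ces1f were not. The 250 bases before each start were searched on both strands for the E-box CACGTG bound by BMAL1 and CLOCK, the D-box in the forms TTATGTAA and TTACGTAA bound by DBP, TEF and HLF, and the RORE core TAGGTCA bound by ROR and REV-ERB proteins. A D-box of the form TTATGTAA was found in Ces1c, Ces1e and Ces1g, and also in Ces1a and Ces1b, while 0.819% of 32851 promoter windows of this length hold it. These are related genes of the same cluster, and the windows of Ces1b and Ces1c share most bases around the match. The matches are thus not independent of each other. A further RefSeq start of Ces1b had no full match in its window. The other D-box form, the E-box and the RORE core were found in none of the 6 members, against 0.113%, 6.02% and 2.23% of all windows. Stretches of 60 bases that include the D-box are printed, because it is the 1 searched motif found in a member. They run 5′ to 3′ on the minus strand, with the match in capitals.
Ces1c, chr8:93131336-93131395: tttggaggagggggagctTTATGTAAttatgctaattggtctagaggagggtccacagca
Ces1e, chr8:93229659-93229718: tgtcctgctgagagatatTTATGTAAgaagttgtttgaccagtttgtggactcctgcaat
Ces1g, chr8:93337400-93337459: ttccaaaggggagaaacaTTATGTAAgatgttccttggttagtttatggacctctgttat

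The match starts 94 bases before the start of Ces1c, 81 before that of Ces1e and 232 before the RefSeq start of Ces1g, which is 133 before the GENCODE start. A match of letters is no proof of a bound site.

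Among 21 regulators of drug and lipid enzymes 20 were tested, and 4 were lower and 3 higher in KO at ZT4, 4 lower and 1 higher at ZT16, against 3.29% and 4.03% of all tested genes. The 4 lower genes were Nr1d1, Nr1d2, Dbp and Tef at both times. These are clock genes and clock outputs, and the list held them although BMAL1 was the deleted factor. The counts are therefore not read as a result about regulators of drug and lipid enzymes. The list's median log2 fold change was -0.05 at ZT4 and -0.11 at ZT16, against 0.00 and 0.02 over all genes. Dbp, the gene of a D-box activator driven by the clock, fell from 28.6 ± 4.55 CPM to 9.70 ± 2.36 at ZT4 and, at ZT16, from 21.8 ± 1.25 to 7.95 ± 1.89 (edgeR adjusted p = 0.000847 and 0.00115). Tef, a second D-box activator gene, fell by 0.60 on the log2 scale at ZT16 (SE 0.09, edgeR adjusted p = 0.00305). Nr1d1 and Nr1d2, the genes of REV-ERB alpha and beta, fell by 1.89 and 2.00 on the log2 scale at ZT4 (SE 0.15 each, edgeR adjusted p = 2.80e-05 and 1.46e-05). Ppard, which encodes a fatty acid sensing nuclear receptor, rose from 25.8 ± 6.71 to 99.1 ± 11.2 CPM at ZT4 (edgeR adjusted p = 0.00162). At ZT16 it rose from 13.9 ± 0.869 to 99.1 ± 39.0 CPM (edgeR adjusted p = 9.75e-05). Each of these calls held in all 12 fits that leave 1 library out.

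Of 22 neutral lipid hydrolases and their partners 21 were tested, and 3 were lower at ZT4 and 4 at ZT16 in KO, with none higher, against 3.29% and 4.03% of all tested genes. The medians were -0.21 and -0.13 on the log2 scale. Plin2, which coats lipid droplets, fell from 97.2 ± 6.11 CPM to 61.9 ± 0.665 at ZT4 and, at ZT16, from 126 ± 6.54 to 84.9 ± 12.6 (edgeR adjusted p = 0.00324 and 0.00589). Angptl4, an inhibitor of lipoprotein lipase, fell by 2.05 on the log2 scale at ZT16 (SE 0.35, edgeR adjusted p = 0.00550). These 3 calls held in all 12 fits that leave 1 library out. At ZT4 Angptl4 fell by 1.46 (SE 0.35, edgeR adjusted p = 0.0414), a call held in 4 of 12. Nceh1, a cholesteryl ester hydrolase, was also called at both times, and Lipa, the lysosomal acid lipase, at ZT16, with calls that held in 5, 1 and 8 of those fits. The counts of calls in this list ranged from 1 to 6 at ZT4 and from 2 to 11 at ZT16 with 1 library left out, the 6 and the 11 being those without KO ZT16 replicate 2.

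Of 18 other drug and ester hydrolases 17 were tested, and 2 were lower in KO at ZT4, and 1 was lower and 1 higher at ZT16, against 3.29% and 4.03% of all tested genes. The medians were -0.08 and -0.11 on the log2 scale. Acot1, an acyl-CoA thioesterase, fell by 0.81 at ZT4 and by 0.64 at ZT16 on the log2 scale (SE 0.11 each, edgeR adjusted p = 0.00156 and 0.00568). Faah, which splits fatty acid amides, rose by 0.63 ± 0.09 on the log2 scale at ZT16 (edgeR adjusted p = 0.00150), from 46.7 ± 2.78 to 72.5 ± 7.41 CPM. Ephx2, the soluble epoxide hydrolase, was the second gene lower at ZT4, at 571 ± 81.7 CPM in WT and 359 ± 8.22 in KO (edgeR adjusted p = 0.0445), a call kept in 4 of 12 fits that leave 1 library out.

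All 16 genes of triglyceride and lipoprotein assembly were tested, and 2 were higher and 2 lower in KO at ZT4, 1 higher and 1 lower at ZT16, against 3.29% and 4.03% of all tested genes. The medians were -0.10 and -0.08 on the log2 scale. Apob, the structural protein of lipoproteins that the kidney also makes, rose from 378 ± 33.8 to 528 ± 42.8 CPM at ZT16 (edgeR adjusted p = 0.0144), which held in 11 of 12 fits. Mttp, which loads fat onto it, fell from 35.3 ± 1.86 to 26.6 ± 1.93 CPM at ZT4 (edgeR adjusted p = 0.0248), which held in 8 of 12. Cd36, a fatty acid uptake receptor, stood at 854 ± 158 CPM in WT and 481 ± 18.8 in KO at ZT4 (edgeR adjusted p = 0.0497), and kept its call in 3 of 12.

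Between the times in WT, 1 lipid hydrolase gene rose, 1 ester hydrolase gene rose and 1 fell, 1 regulator rose and 2 fell, and 2 assembly genes rose and 1 fell, where 6.50% of all tested genes passed. In KO, 1 lipid hydrolase gene rose and 2 fell, 1 regulator rose and 2 fell, and 2 assembly genes rose and 1 fell. Of all tested genes 10.5% passed there. No ester hydrolase gene passed in edgeR. Of them 4 had an unadjusted p under 0.05 in edgeR, beside 5862 of all 16150 tested genes. DESeq2 called 4 of them, and 3705 genes in all. Plin2 was higher at ZT16 in both genotypes, by 0.37 ± 0.10 in WT and 0.46 ± 0.10 in KO on the log2 scale (edgeR adjusted p = 0.0455 and 0.0210). Mttp likewise rose by 0.35 ± 0.09 and 0.41 ± 0.09 (edgeR adjusted p = 0.0372 and 0.0195). Those calls held in 3, 9, 5 and 10 of the 12 fits that leave 1 library out.

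The genes whose profile over the 12 libraries was nearest to those of Ces1d and Ces1g came from other families. The measure was the root mean square difference of log2 CPM, with each gene centred on its own mean, over the 11065 genes that averaged 5 CPM or more. Nearest to Ces1d were Cyp2a4 (0.212), a steroid hydroxylase gene, Angptl7 (0.299), Alb (0.307), Cyp4a12a (0.381), a fatty acid hydroxylase gene, and Serpina1d (0.428), and Ces1g ranked 7th (0.462). Nearest to Ces1g were Cyp2a4 (0.298), Serpina1d (0.384), Nr1d2 (0.400), Angptl7 (0.404) and Cyp4a12a (0.433), and Ces1d ranked 8th. Cyp2a4 stood at 603 CPM in WT ZT4, 123 in KO ZT4, 916.5 in WT ZT16 and 186 in KO ZT16. Alb, the albumin gene and a hepatocyte marker, stood at 7.90 to 16.3 CPM in WT and 1.09 to 3.90 in KO libraries. The 10 hepatocyte markers together summed to 28.9 to 40.2 CPM in WT ZT4, 36.2 to 37.4 in KO ZT4, 36.3 to 45.4 in WT ZT16 and 35.5 to 61.5 in KO ZT16. Of the 6 tested, Alb and F2 were lower in KO at each time, with log2 fold changes of -2.96 and -1.84 at ZT4 (edgeR adjusted p = 0.000640 and 0.00738). Serpinc1 (-0.91), Apoh (0.76), Apoa2 (0.16) and Apoa1 (0.05) did not pass there. The median was -0.43 at ZT4 and -0.23 at ZT16, and their part in the values of Ces1d and Ces1g was not tested. The profiles share their libraries, and values of Cyp2a4, Cyp4a12a and Serpina1d are uncertain because close paralogs can share reads.

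**Figure D4:**
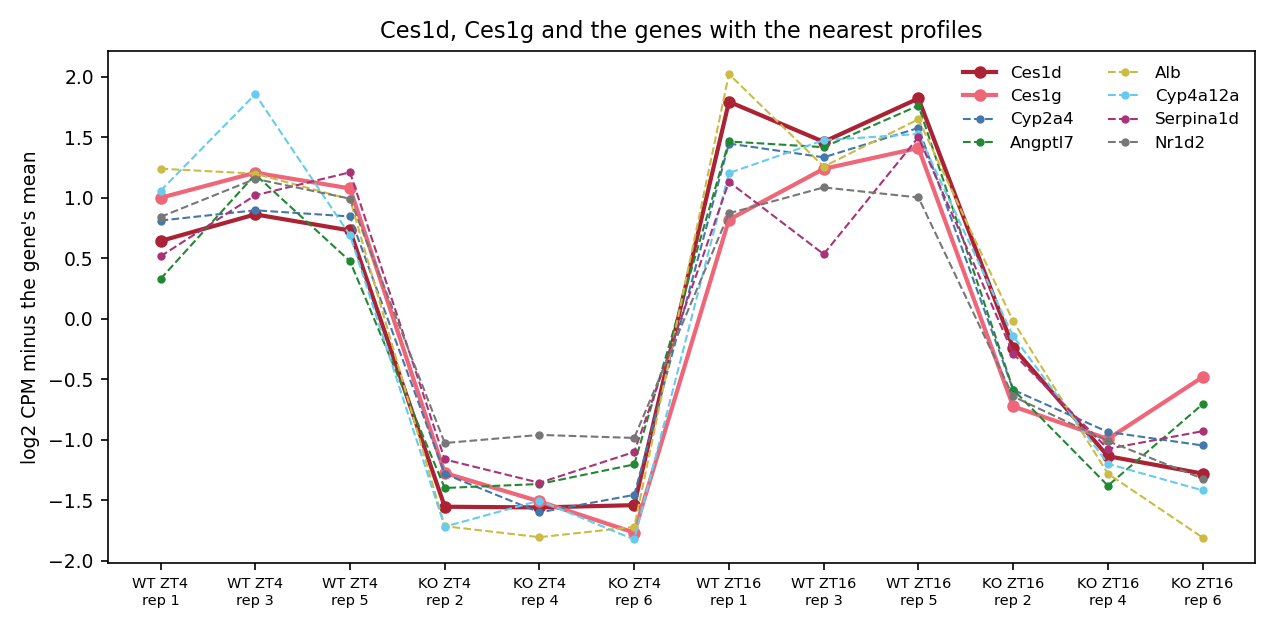
Log2 CPM of Ces1d and Ces1g (solid lines) and of the 6 genes nearest to either (dashed lines) in each of the 12 libraries, each gene minus its own mean. All lines lie above 0 in the 6 WT libraries and below 0 in the 6 KO libraries, and in KO ZT16 replicate 2 Ces1d is closer to 0 than in the other KO libraries. Ces1d and Ces1g were chosen by their knockout difference and the 6 genes by likeness to them. The split by genotype follows from that choice and is no separate result.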

How the data were processed

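Per the submitters' processing notes, reads were trimmed with cutadapt 1.2.1, aligned to GRCm38 with TopHat2 2.0.9 and counted with HTSeq 0.5.4p3, and edgeR and limma were used in R 3.1.1. The deposited values are raw read counts per gene for each library. Per the labels' protocols the libraries were TruSeq stranded mRNA from 500 ng of RNA. How reads were assigned to genes (mode, strand, release of the annotation) is not given in the sources used here. The lines for unassigned reads (no feature 3.50% to 5.96%, ambiguous 0.411% to 0.534%, not uniquely aligned 30.8% to 43.0% of each library) entered neither library sizes nor tests. Symbols, positions and transcripts came from GENCODE M21 and promoters from RefSeq (GRCm38.p6).

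Genes with low counts were removed by filterByExpr using the 4 groups (16150 left), and the rest were scaled by TMM and tested with the quasi-likelihood test of edgeR 4.0.16 in R 4.3.3, in 1 fit of 4 group means over all 12 libraries, with Benjamini-Hochberg adjustment over all tested genes and a threshold of 0.05. The SE is the fitted log2 fold change divided by the root of the F statistic. Log2 CPM used a prior count of 2. Alternatives were RLE scaling, no filter, DESeq2 1.42.0, only the groups compared, each library left out, the replicate number as a block and, for levels per kilobase, the longest transcript. The fit was tested on simulated data. The members, the 5 gene lists and the 11 marker lists were chosen with earlier results of these data known. The rule for names took all carboxylesterases, at most the 4 genes of smallest adjusted p per list and comparison, 5 neighbours on each side of a cluster, and the 5 nearest profiles of Ces1d and of Ces1g.

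No 2 libraries of a group were alike within sampling noise (chi-square per degree of freedom of 4.71 or more over genes with at least 20 reads).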

Additional observations from a re-analysis of the deposited data

How the results depend on the processing

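Knockout differences of the members kept their sign under every alternative run except those of Ces1c, which ranged from -0.53 to 0.20 at ZT4 and from -0.77 to 0.08 at ZT16 on the log2 scale. With 1 library left out, 0 to 4 members were called between the times in WT, 0 to 4 in KO and 0 for the interaction. In the same settings 6 to 7 members at ZT4 and 2 to 7 at ZT16 had libraries that did not overlap between genotypes. Of all genes 37.7% and 15.9% did not overlap with all libraries in. Without KO ZT16 replicate 2 the share at ZT16 was 57.2%. Shares for the other settings are not given here, and nothing is read from these counts of members. In WT, 2 members were called with only the groups compared. In KO, 4 were called with DESeq2 and 0 with only the groups compared. With RLE scaling 4 were called, and the count of all genes for that setting is not given here. Called genes of all ranged from 228 to 2503 (KO against WT at ZT4), 380 to 5099 (ZT16), 220 to 5473 (times in WT), 181 to 3629 (times in KO) and 3 to 8 (interaction) with 1 library left out. DESeq2 called 1061, 1008, 2149, 3705 and 18 genes, and a fit of only the groups compared called 2877, 200, 3557 and 36, with no such fit for the interaction, which uses all groups. Over the 4 comparisons together, the lists had 0 to 5 (other carboxylesterases), 4 to 28 (lipid hydrolases), 4 to 19 (ester hydrolases), 12 to 32 (regulators) and 2 to 21 calls (assembly) with 1 library left out, and DESeq2 gave the first 3 of them 5, 20 and 12. Among the fits with 1 library left out, the most calls of all genes came without KO ZT16 replicate 2 at both genotype comparisons and in WT, and the cause was not tested.

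Libraries of the same replicate number did not deviate together, with correlations of -0.266 to 0.0542 between the times, and not every library correlated best with its own number. With the replicate block, 0 members were called between the times in WT and 0 in KO, and 229, 189 and 1 genes in all for WT, KO and the interaction. The numbers are not shared between genotypes, so KO against WT has no such fit. The block gave Ces1d an edgeR adjusted p of 0.0623 in WT and 0.0965 in KO, and Ces1g one of 0.0588 in KO.

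Signs that turned belonged to differences that did not pass in any fit. With 1 library left out they ranged from -0.44 to 0.47 for Ces1c in KO between the times, from -0.04 to 0.24 for Ces1g in WT between the times and from -0.13 to 0.21 for Ces2h between genotypes at ZT4. The interactions ranged from -0.68 to 0.24 for Ces1c, from -0.32 to 0.05 for Ces1e, from -0.14 to 0.17 for Ces1f, from -0.05 to 0.24 for Ces2c and from -0.18 to 0.10 for Ces2b. Levels per kilobase of the longest transcript left Ces1f and Ces1d the 2 most abundant members in WT.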
